A study of Pimephales promelas with 139 samples.

Results

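Larvae of the fathead minnow (Pimephales promelas), a small North American fish used in toxicity testing, that were held in water with 10 ng/L of ethinyl estradiol (EE2) were set against larvae held in water with 1.2 ng/L. The comparison takes 58 libraries, 28 from larvae at 10 ng/L and 30 from larvae at 1.2 ng/L, chosen by the concentration given in the labels, and leaves out the 81 other libraries of the series. Both sides were exposed to the same compound in the same way, so the comparison asks what more of the estrogen does, and no unexposed larva enters its test. Each library is 1 whole larva. Exposure was static, began 48 h after hatching and lasted 48 h, and the larvae were taken at 96 h. Experiments 1, 2 and 3 contributed 10, 9 and 9 larvae at 10 ng/L, and 10 larvae each at 1.2 ng/L. The labels give no strain, sex or vessel for a larva, so p-values measure the spread between these libraries, some of which may share a vessel or parents.

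EE2 is the synthetic estrogen of oral contraceptives. It binds the nuclear estrogen receptors, which then attach to estrogen response elements in DNA and change the transcription of nearby genes. In fish the liver is a main target: estrogens switch on the yolk precursor vitellogenin and proteins of the egg envelope there, also in males and in young fish that would not make them otherwise. The deposited table names transcripts by identifier only and pairs none with a gene, so none of the transcripts below can be tied to these genes here, and tissue markers could not be checked. In RNA of a whole larva, more cells of a type and more RNA per cell cannot be told apart.

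Total counts per library ran from 8756290 to 29245408 in larvae at 10 ng/L, with a median of 22102596, against 10468432 to 30301015 at 1.2 ng/L, with a median of 23933554.5, a difference in medians with p = 0.193 by a two-sided permutation test within experiments. Between 35857 and 36745 transcripts had a read in the larvae at 10 ng/L, and between 34800 and 36807 in those at 1.2 ng/L (permutation p = 0.268 for the medians). Of 6 libraries with less than 0.5 times the median total, 4 were at 10 ng/L, against 2 at 1.2 ng/L.

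The higher concentration was set apart from the lower one by very few transcripts. Of 32568 transcripts tested, 5 were higher at 10 ng/L than at 1.2 ng/L and none was lower (edgeR's quasi-likelihood test with experiment as a term, Benjamini-Hochberg adjusted p under 0.05), which is 0.0154% of those tested. At an unadjusted p under 0.05 in edgeR, 594 transcripts were higher and 581 lower, together 3.61% of those tested. This share is smaller than expected at that threshold if no transcript differed, and why was not tested. DESeq2 called 9 transcripts: the 5 of edgeR, FMt008590, FMt038557 and FMt043678 as higher, and FMt026700 as lower. They are named because the list is short. With limma-voom the same 5 as in edgeR were called and none lower. The 5 transcripts called higher by edgeR are FMt030406, FMt030407, FMt030408, FMt019919 and FMt036339. The first 4 are known from earlier results on these data to respond from 1.2 ng/L on. For each of these 4, every larva at 10 ng/L lay above every larva at 1.2 ng/L, and no other transcript tested had groups that did not overlap (4 of 32568, 0.0123%). The values of FMt036339 overlapped between the groups.

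**Figure D1:**
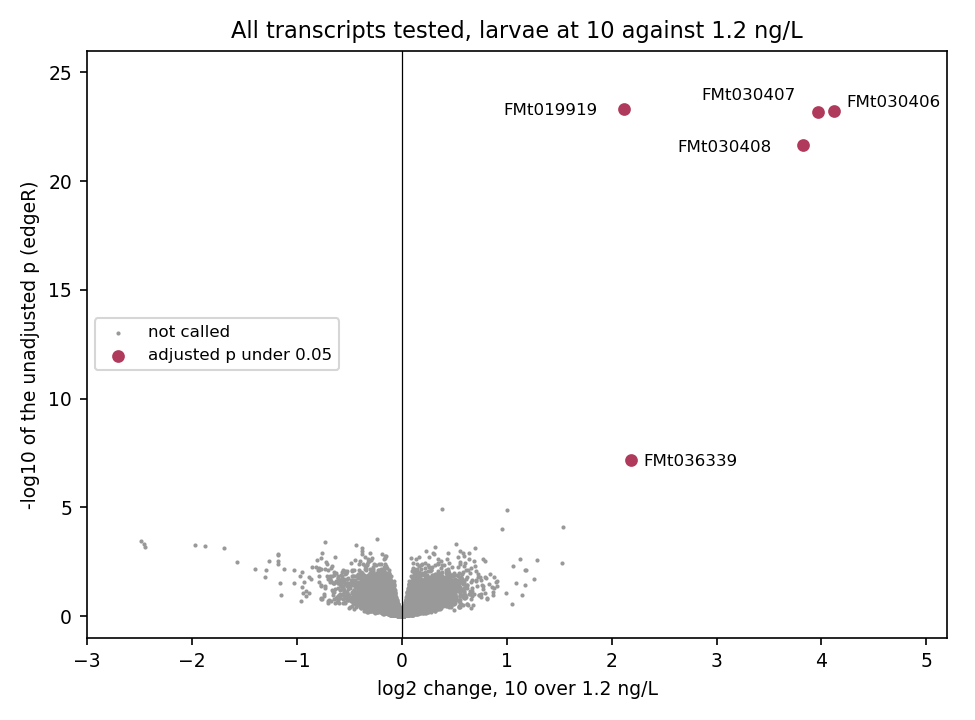
Log2 change at 10 ng/L over 1.2 ng/L (x axis) against -log10 of the unadjusted edgeR p (y axis), 1 point per transcript tested. The 5 transcripts called, in red, lie to the right of 0, and FMt036339 lies well below the other 4 in evidence.

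FMt030408 was the most abundant of the 5. Its level was 74.3 CPM (CPM is the read count scaled to the size of the library) in the lowest, 169 CPM in the median and 299 CPM in the highest larva at 10 ng/L, against 0.724, 10.3 and 32.6 CPM in the lowest, median and highest larva at 1.2 ng/L. The lowest larva at 10 ng/L thus held more than the highest at 1.2 ng/L. The means were 173 ± 61.6 CPM (SD, n = 28) in larvae at 10 ng/L and 12.1 ± 7.94 CPM (SD, n = 30) in larvae at 1.2 ng/L. The log2 change was 3.82 ± 0.24 (SE, edgeR adjusted p = 1.82e-18), or 14.1-fold.

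FMt030407 ran from 15.1 CPM through a median of 36.3 to 58.5 CPM at 10 ng/L, against 0.0594, 2.09 and 5.74 CPM at 1.2 ng/L. FMt030406 had 5.63, 22.3 and 38.7 CPM as lowest, median and highest value at 10 ng/L, against 0.0594, 1.23 and 3.27 CPM at 1.2 ng/L. Both show the same gap between groups as FMt030408, at lower levels. The log2 change was 3.97 ± 0.23 (SE, adjusted p = 7.21e-20) for FMt030407, a 15.6-fold rise, and 4.12 ± 0.24 (adjusted p = 7.21e-20) for FMt030406, a 17.3-fold rise. At 1.2 ng/L these values rest on few reads: the median larva had 50 reads of FMt030407 and 24 of FMt030406, against 760.5 and 455 at 10 ng/L.

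FMt019919 was scarce on both sides. It had 1.96, 3.32 and 5.73 CPM in the lowest, median and highest larva at 10 ng/L, against 0.269, 0.731 and 1.63 CPM at 1.2 ng/L. In CPM the gap between the groups was narrow but complete. It rests on few reads: the nearest larvae, numbered 47 at 10 ng/L and 43 at 1.2 ng/L, had 44 and 45 reads. Unscaled read counts overlapped, with a lowest count of 20 at 10 ng/L and a highest of 45 at 1.2 ng/L. The log2 change was 2.12 ± 0.13 (SE; edgeR adjusted p = 7.21e-20), or 4.34-fold, with a median of 61.5 reads per library at 10 ng/L and 17 at 1.2 ng/L. Its SE is the smallest of the 5.

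**Figure D2:**
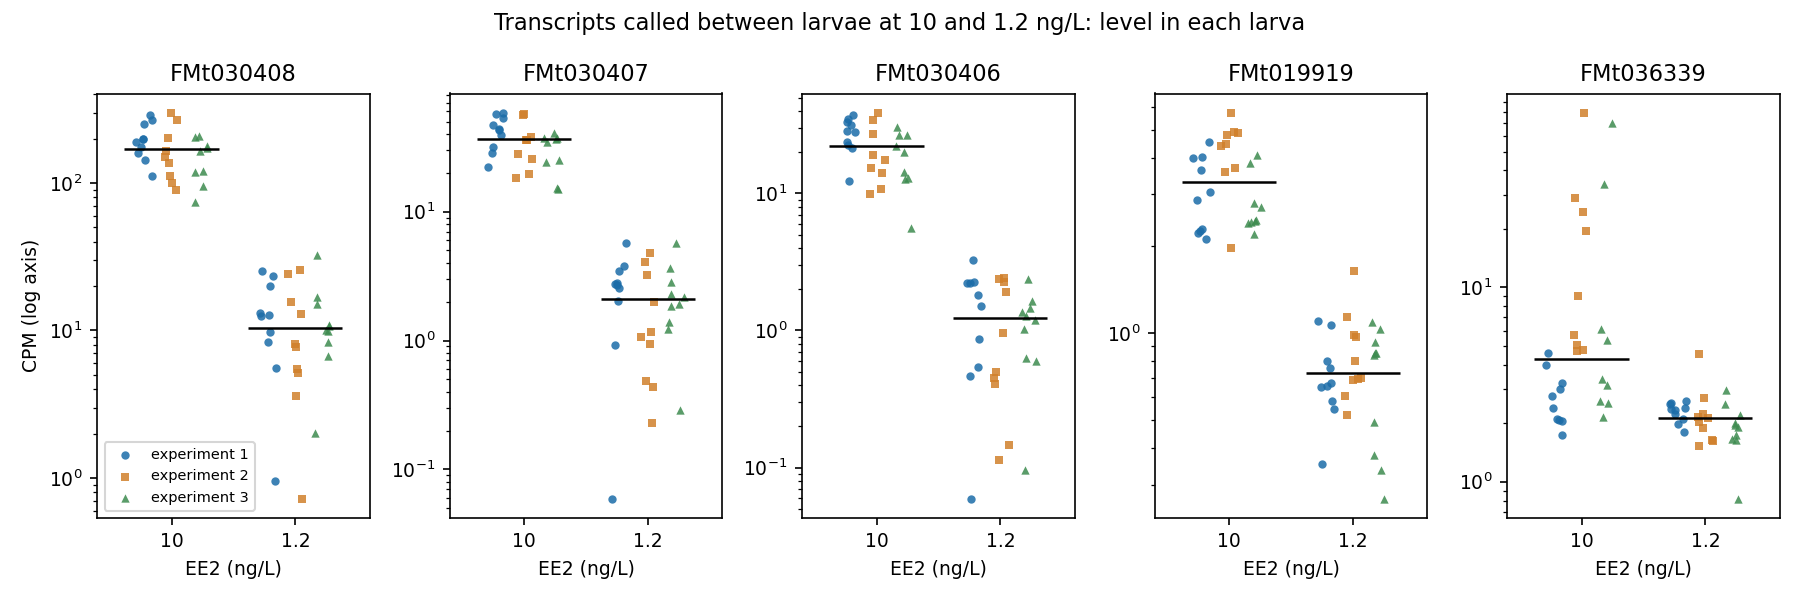
Level of the 5 transcripts in each larva at 10 ng/L (left in each panel) and 1.2 ng/L (right), in CPM on a log axis, with a symbol for each experiment and a bar at the median of the group. The groups do not overlap for FMt030408, FMt030407, FMt030406 and FMt019919; for FMt036339, 14 of 28 larvae at 10 ng/L exceed every larva at 1.2 ng/L.

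The concentrations differ by a factor of 8.33, which is 3.06 on the log2 scale, and the log2 changes in level lay on both sides of it. The 95% confidence interval of the log2 change was 3.34 to 4.31 in FMt030408, 3.50 to 4.43 in FMt030407 and 3.63 to 4.60 in FMt030406, each wholly above 3.06. For FMt019919 it was 1.86 to 2.37, wholly below. Per doubling of the concentration the log2 change was 1.30 (interval 1.14 to 1.45) in FMt030407 and 0.69 (0.61 to 0.77) in FMt019919. These are changes in total level. Unexposed larvae already averaged 0.359 CPM of FMt019919, against 0.766 CPM at 1.2 ng/L. For FMt030408 the means were 0.469 CPM in unexposed larvae and 12.1 CPM at 1.2 ng/L. The unexposed level was not taken off, so the comparison with 3.06 does not cover the rise above unexposed larvae.

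The 4 rises were alike in the experiments. Within experiments 1, 2 and 3, fitted one by one, FMt030408 changed by 3.90 ± 0.37, 3.96 ± 0.49 and 3.60 ± 0.34 (SE, log2) and FMt019919 by 2.08 ± 0.21, 2.28 ± 0.22 and 1.98 ± 0.25. FMt030406 changed by 4.14 ± 0.36, 4.17 ± 0.48 and 4.03 ± 0.37, and FMt030407 by 3.98 ± 0.35, 4.24 ± 0.47 and 3.68 ± 0.35. Each of the 4 was called in each experiment by itself, with adjusted p-values up to 0.00118 for FMt030408, and each experiment kept the groups apart. Experiments 1 and 3 called 4 transcripts each and experiment 2 called 5 (0.0125, 0.0124 and 0.0156% of those tested), and all of these are among the 5 of the pooled test. The test of the interaction itself called no transcript of 32568 as differing between experiments in edgeR, with 857 at an unadjusted p under 0.05. In limma-voom it called none either, with 782 under that threshold. DESeq2's likelihood ratio test called 3, FMt008941, FMt010215 and FMt036701, named here because the list is short.

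FMt030406, FMt030407 and FMt030408 carry consecutive identifiers, and the labels do not say how reads were split between similar transcripts. FMt030408 made up 74.9 ± 2.06% (SD) of the CPM of the 3 together in larvae at 10 ng/L and 77.6 ± 5.61% at 1.2 ng/L. FMt030407 made up 15.5 ± 1.33% at 10 ng/L, against 14.5 ± 4.81% at 1.2 ng/L, and FMt030406 9.58 ± 1.55% at 10 ng/L, against 7.88 ± 2.56% at 1.2 ng/L. Their sum had a median of 229 CPM in larvae at 10 ng/L, against 13.8 CPM at 1.2 ng/L, so the proportions moved by a few percentage points and the sum by far more. The identifiers on either side showed no such gap: FMt030405 averaged 57.68 CPM at 10 ng/L, against 57.77 CPM at 1.2 ng/L, and FMt030409 averaged 32.01 CPM at 10 ng/L, against 32.04 CPM at 1.2 ng/L. FMt019918 and FMt019920, on either side of FMt019919, averaged 47.3 and 15.4 CPM at 10 ng/L and 51.53 and 15.49 CPM at 1.2 ng/L, with adjusted p-values of 1.

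From larva to larva, the 3 transcripts with consecutive identifiers moved together, while no relation of FMt019919 to any of them passed the test. They are called neighbours below by identifier only. The part that reads shared between similar transcripts have in their relations was not tested. Across the 28 larvae at 10 ng/L, with experiment means of log2(CPM + 0.1) taken out, FMt030408 correlated with FMt030407 at Pearson's r = 0.958 (Spearman's rho 0.970) and with FMt030406 at r = 0.916 (rho 0.910). Across the 30 larvae at 1.2 ng/L the values were r = 0.911 (rho 0.832) and r = 0.922 (rho 0.920). For these 4 relations the permutation p within experiments was 1e-05 for r and rho, the smallest that 100000 permutations can give, and 2e-05 after adjustment over the 12 relations computed. Without the 2 larvae farthest from the median of FMt030408 the r values were 0.949 and 0.897 at 10 ng/L and 0.867 and 0.907 at 1.2 ng/L.

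FMt030408 and FMt019919 had r = 0.170 (rho 0.0783) across the larvae at 10 ng/L and r = -0.117 (rho -0.0754) across those at 1.2 ng/L, with permutation p-values of 0.417 and 0.529 for r (0.692 and 0.691 for rho) and adjusted values of 0.556 and 0.635 for r and 0.755 for rho at both. Without the 2 farthest larvae r was 0.0614 at 10 ng/L, against -0.201 at 1.2 ng/L. The other two neighbours had higher r values with FMt019919 at 10 ng/L: 0.319 in FMt030407 (rho 0.184; permutation p = 0.112 and 0.351, adjusted 0.192 and 0.526) and 0.276 in FMt030406 (rho 0.210; p = 0.163 and 0.274, adjusted 0.245 and 0.470). Across larvae at 1.2 ng/L their r values were 0.0467 and -0.0618 (permutation p = 0.805 and 0.744, adjusted 0.805 for both). Between FMt030408 and FMt019919 r was, within experiments 1, 2 and 3, -0.0300, 0.256 and 0.278 at 10 ng/L, and 0.0958, -0.111 and -0.325 at 1.2 ng/L. A larva with much FMt030408 for its concentration therefore did not, in these data, detectably hold much or little FMt019919. Counting error adds to the spread of FMt019919 at 17 reads per median library at 1.2 ng/L, and its part in the low correlation was not tested.

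Single larvae at the lower concentration, picked by their values, illustrate this and do not test it. The larvae numbered 33 and 18 at 1.2 ng/L had the lowest FMt030408 of their group, 0.724 and 0.951 CPM, next to 0.114 and 0.0594 CPM of FMt030406, while the highest of 29 unexposed larvae had 1.00 CPM of FMt030408. Their FMt019919, at 0.801 and 0.653 CPM, was ordinary for the group, whose median was 0.731 CPM. The larva numbered 43 held the highest FMt019919 at 1.2 ng/L, 1.63 CPM, with only 3.62 CPM of FMt030408. Other larvae were high in both: the larva numbered 2 had 25.4 CPM of FMt030408 and 1.06 CPM of FMt019919.

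**Figure D3:**
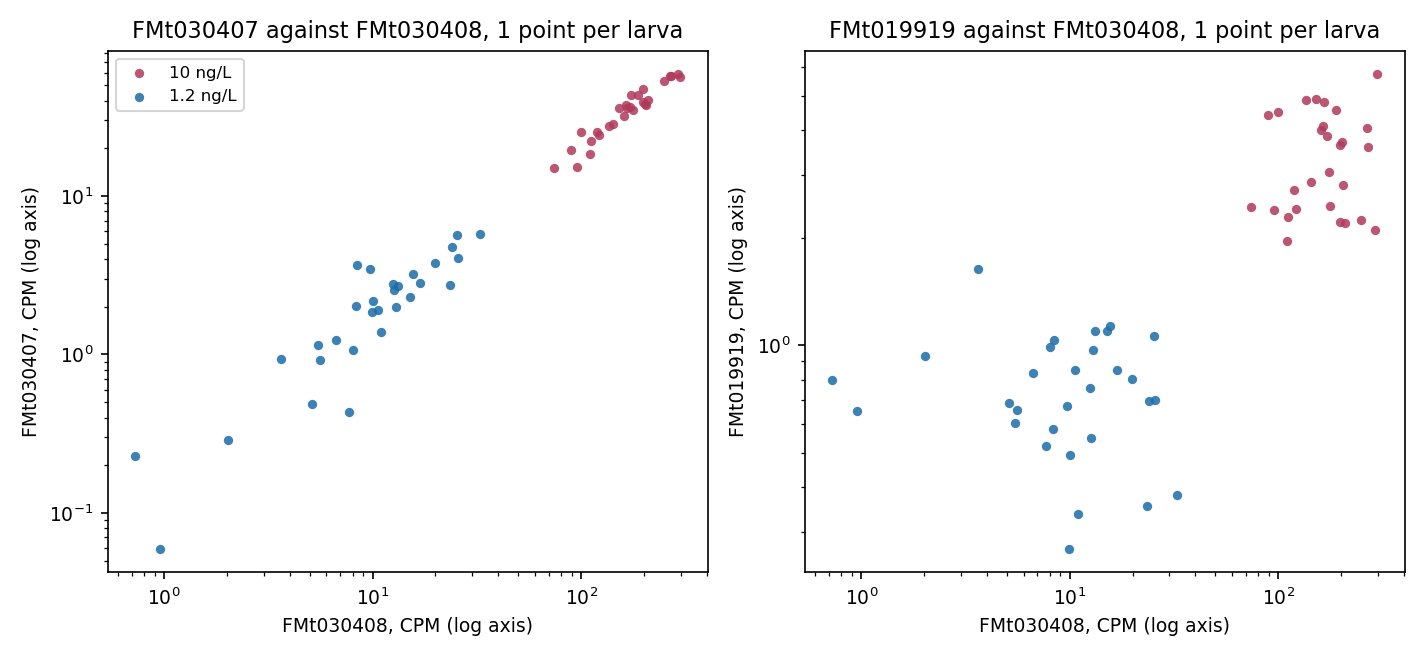
FMt030407 (left panel) and FMt019919 (right panel) against FMt030408, in CPM on log axes, 1 point per larva, at 10 ng/L in red and 1.2 ng/L in blue. In the left panel the larvae of each concentration lie along a line (r = 0.958 at 10 ng/L and 0.911 at 1.2 ng/L), while in the right panel each concentration forms a cloud without one (r = 0.170 and -0.117). The r values are of log2(CPM + 0.1) after experiment means were taken out, while the points show CPM with the experiment means left in.

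The spread between larvae of a concentration was compared as well. The SD of log2(CPM + 0.1) within experiments was 0.519 in larvae at 10 ng/L, against 1.29 at 1.2 ng/L, in FMt030408, and 0.645 at 10 ng/L, against 1.26 at 1.2 ng/L, in FMt030406. In FMt019919 it was 0.389 at 10 ng/L, against 0.50 at 1.2 ng/L. A limma test of the absolute deviations from the group's median in each experiment gave unadjusted p-values of 0.0180, 0.00907 and 0.284 for these, and adjusted values of 1. FMt036339 went the other way: its mean absolute deviation was 0.888 in larvae at 10 ng/L, against 0.234 at 1.2 ng/L (unadjusted p = 0.000853, adjusted p = 1). Over all transcripts this test called none of 32568, and 833 had an unadjusted p under 0.05, 314 with more spread at 10 ng/L and 519 with more at 1.2 ng/L. In FMt030407 the SD was 0.533 at 10 ng/L, against 1.29 at 1.2 ng/L (unadjusted limma p = 0.0234, not called). The wider scatter of the 3 neighbours at 1.2 ng/L is therefore a description of these larvae. At 1.2 ng/L the median larva had 24 reads of FMt030406, 50 of FMt030407 and 233.5 of FMt030408. The lowest larva there had 1, 1 and 16 reads in the same order. The part of counting error in the scatter was not tested.

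FMt036339 had 1.73, 4.28 and 79.1 CPM in the lowest, median and highest larva at 10 ng/L, against 0.819, 2.12 and 4.57 CPM at 1.2 ng/L. Among larvae at 10 ng/L, 14 of 28 exceeded the highest at 1.2 ng/L and the others lay within the range of that group. The mean was 12.1 ± 19.7 CPM (SD, n = 28) at 10 ng/L, against 2.16 ± 0.625 CPM (SD, n = 30) at 1.2 ng/L, with a log2 change of 2.18 ± 0.35 (SE, edgeR adjusted p = 0.000437). At 10 ng/L the SD exceeds the mean. The share of all transcripts with as many larvae above the other group is not given here. The count of 14 larvae, and counts of that kind below, within experiments too, therefore only describe these larvae.

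The experiments were unequal for FMt036339. In experiment 1 its median was 2.58 CPM at 10 ng/L, against 2.35 CPM at 1.2 ng/L, and the highest larva at 10 ng/L had 4.58 CPM. In experiment 2 all 9 larvae at 10 ng/L lay above the 10 larvae of that experiment at 1.2 ng/L, with medians of 9.02 CPM at 10 ng/L, against 2.09 CPM at 1.2 ng/L. In experiment 3, 6 of 9 larvae at 10 ng/L did, with medians of 3.38 CPM at 10 ng/L, against 1.94 CPM at 1.2 ng/L. The log2 change was 0.28 ± 0.17, 3.19 ± 0.52 and 2.90 ± 0.63 (SE) in experiments 1, 2 and 3, called in experiment 2 alone (adjusted p = 0.0439; 0.999 and 0.774 in experiments 1 and 3). The interaction with experiment had an unadjusted p of 0.000136 and an adjusted p of 0.733, so the unevenness did not pass the test across transcripts. Without experiment 2 the pooled change was 1.61 (log2; adjusted p = 1.00), and without experiment 3 it was 1.76 (adjusted p = 0.217), not called in either case. Leaving out any 1 of the 58 libraries kept the call, at log2 changes from 1.81 to 2.24.

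High values of FMt036339 were also looked at by the numbers of the larvae in the labels. The numbers come in runs of 5 of which at most 2 were sequenced per concentration (22 and 23, 27 and 28, and so on), and no label says what the runs stand for. Of 13 such runs with 2 larvae at 10 ng/L, both larvae exceeded every larva at 1.2 ng/L in 5 runs, 1 of them in 3 runs and neither in 5 runs. This split largely repeats the experiments. All larvae of experiment 2 exceeded that level, so each of its runs did, and in experiment 1 only the larva numbered 22 did. In experiment 3, 1 larva did in the runs 52 and 53 and 57 and 58, 0 in 67 and 68, and 2 in 72 and 73. The larvae numbered 42 and 43 had 28.9 and 19.4 CPM, and those numbered 47 and 48 had 79.1 and 24.5 CPM. In contrast, number 57 had 70.2 CPM and number 58 had 2.14 CPM. With the larvae of a run summed to 1 library, 15 on each side, the log2 change was 2.13 and was not called (adjusted p = 0.402), while the other 4 transcripts stayed called. The sums leave fewer libraries, and why the call was lost was not tested. A limma-voom fit of single larvae with a correlation within runs, estimated at -0.041 over all transcripts, called all 5. That value is shared by all transcripts. A correlation within runs was not estimated for FMt036339 by itself, so this fit cannot show the effect of likeness within its runs.

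**Figure D4:**
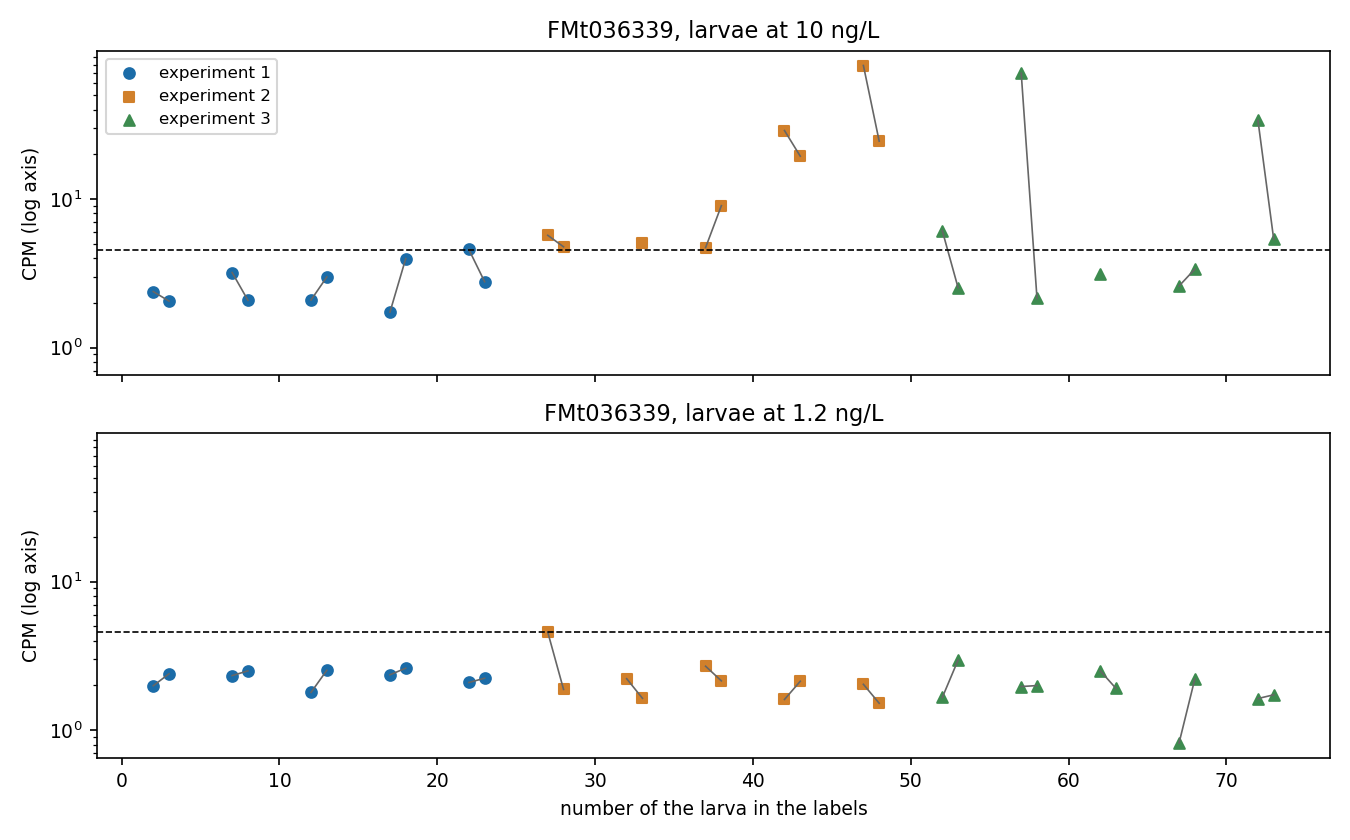
FMt036339 in CPM on a log axis by the number of the larva in the labels, for larvae at 10 ng/L (upper panel) and 1.2 ng/L (lower panel). Lines join larvae of the same run of 5 numbers, and the dashed line marks the highest larva at 1.2 ng/L, 4.57 CPM, which all 9 larvae of experiment 2 at 10 ng/L exceed, against 1 of 10 in experiment 1.

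Directly below the threshold stood FMt008590 and FMt043678, both named in earlier results for 10 ng/L against unexposed larvae. FMt008590 averaged 7.73 ± 1.76 CPM (SD) at 10 ng/L, against 5.88 ± 1.10 CPM at 1.2 ng/L. The highest larva at 1.2 ng/L was exceeded by 8 of 28 larvae at 10 ng/L. Its log2 difference of 0.39 ± 0.08 (SE) had an adjusted p of 0.0622 and the same sign in each experiment. FMt043678 averaged 3.34 ± 3.00 CPM at 10 ng/L, against 1.59 ± 0.518 CPM at 1.2 ng/L, with 13 of 28 larvae at 10 ng/L over every larva at 1.2 ng/L, a log2 difference of 1.00 ± 0.21 and an adjusted p of 0.0647. Like FMt036339 it was uneven: its log2 difference was 0.20 ± 0.27 in experiment 1 and 1.39 ± 0.35 in experiment 3, with an interaction p of 0.0230 unadjusted and 1.00 adjusted. DESeq2, a fit with every library of the series and a fit without the experiment term called both.

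The identifiers after FMt043678 also had their highest larvae at 10 ng/L, at lower levels. FMt043679 and FMt043680 were picked after their values were seen. FMt043679, FMt043680 and FMt043681 did not pass the filter on low counts. FMt043681 had a median of 0.411 and a highest value of 6.87 CPM at 10 ng/L, against 0.156 and 0.843 CPM at 1.2 ng/L. In FMt043681, 9 of 28 larvae at 10 ng/L exceeded every larva at 1.2 ng/L. FMt043679 reached 3.53 CPM at 10 ng/L, against 0.179 CPM at 1.2 ng/L, and FMt043680 reached 2.58 CPM at 10 ng/L, against 0.0895 CPM at 1.2 ng/L. Their medians at 10 ng/L were only 0.0615 and 0 CPM. Every larva at 1.2 ng/L was exceeded by 8 of 28 larvae at 10 ng/L in FMt043679 and by 9 in FMt043680. No larva at 1.2 ng/L had more than 2 reads of FMt043679 or 1 read of FMt043680. Without the filter FMt043679 and FMt043680 were called (edgeR adjusted p = 1.28e-05 and 4.26e-05), and FMt043678 and FMt043681 were not. A fit of every library of the series called FMt043678 and FMt043681 (edgeR adjusted p = 6.94e-05 and 0.00154). That fit kept a filter on low counts, which FMt043679 and FMt043680 did not pass, so it did not test them.

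The larva numbered 33 at 10 ng/L held the most of all 4: 13.9 CPM of FMt043678, 3.53 of FMt043679, 2.58 of FMt043680 and 6.87 of FMt043681. That larva had 35857 transcripts detected, the fewest of its group, and a total of 10931015 counts, less than 0.5 times the median. Its FMt036339, at 5.06 CPM, was far from the highest. The larva numbered 72 was high in all 5, with 10.2, 2.90, 1.34 and 3.38 CPM of the 4 in the same order and 33.8 CPM of FMt036339. Across the 28 larvae at 10 ng/L, FMt043678 correlated with FMt043679 at r = 0.824 (rho 0.775), with FMt043680 at r = 0.813 (rho 0.757) and with FMt043681 at r = 0.780 (rho 0.697), with permutation p-values of at most 7e-05 and adjusted values of at most 0.00042 over 18 relations. Without the 2 larvae farthest from the median r was 0.742, 0.699 and 0.676. With FMt036339, FMt043678 had r = 0.482 (rho 0.453; permutation p = 0.0255 and 0.0305, adjusted 0.0764 and 0.0686), which did not pass. Across the 30 larvae at 1.2 ng/L the first 3 relations had r = 0.0542, 0.164 and 0.226, without a test of the difference from 10 ng/L. The median larva at 1.2 ng/L had 0 reads of FMt043679 and FMt043680 and 4 of FMt043681. At 10 ng/L it had 1 read of FMt043679, 0 of FMt043680 and 9 of FMt043681. The relations with FMt043679 and FMt043680 therefore rest on few or no reads in most larvae at both concentrations. These 18 relations were chosen after the values were seen, and the part that reads shared between similar transcripts have in them was not tested.

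FMt030408 and FMt036339, both higher at 10 ng/L, showed no detectable relation across its larvae (r = -0.198, permutation p = 0.362, adjusted 0.534; rho -0.145, p = 0.493, adjusted 0.592). The larva numbered 57 had the lowest FMt030408 of the group, 74.3 CPM, and 70.2 CPM of FMt036339, the next to highest. Across larvae at 1.2 ng/L rho was -0.439 (permutation p = 0.0176, adjusted 0.0686) and r was -0.207 (p = 0.272, adjusted 0.445).

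Larvae at 5 and 2.5 ng/L took no part in the comparison and lie between its concentrations. In the 17 larvae at 5 ng/L against the 18 at 2.5 ng/L, 4 of 32309 transcripts were called by edgeR, all higher (0.0124%), and they are FMt030406, FMt030407, FMt030408 and FMt019919. The log2 changes were 1.98 ± 0.28 (SE), 1.80 ± 0.31, 1.59 ± 0.25 and 0.79 ± 0.15, with adjusted p-values of 0.00101, 0.0120, 0.00475 and 0.0422. FMt036339 had 0.09 ± 0.17 there and was not called. The median over the 5 transcripts was 1.59, against -0.0031 over all transcripts tested, of which 49.2% were above 0. The call of FMt019919 was lost without the low-count filter (adjusted p = 0.0518) and in a fit of every library of the series (0.122), at log2 changes of 0.79. These transcripts were already known to respond at these concentrations, so this count is no independent support.

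Over the exposed larvae the medians of FMt030408 stood at 10.3, 28.8, 88.8 and 169 CPM at 1.2, 2.5, 5 and 10 ng/L, those of FMt030407 at 2.09, 5.53, 15.4 and 36.3 CPM and those of FMt030406 at 1.23, 2.87, 10.8 and 22.3 CPM. FMt019919 had medians of 0.731, 1.09, 2.14 and 3.32 CPM. All 4 medians were higher at each step, while single larvae of neighbouring concentrations overlapped: 9 of 17 larvae at 5 ng/L exceeded every larva at 2.5 ng/L in FMt030408, FMt030407 and FMt019919, and 10 did in FMt030406. FMt036339 had no such steps. Its medians were 2.12, 1.93, 2.23 and 4.28 CPM, and its highest larvae 4.57, 7.19, 3.47 and 79.1 CPM. The 7.19 CPM at 2.5 ng/L is the larva numbered 7, whose library stands apart with 30768 transcripts detected, and without it the highest FMt036339 at 2.5 ng/L was 3.55 CPM. The same larva was the highest at 2.5 ng/L in FMt030408, with 77.9 CPM, and in FMt030407, with 14.0 CPM. The next highest larvae had 46.8 and 10.1 CPM, so the count of 9 larvae for these transcripts depends on the larva numbered 7. FMt043678 had highest larvae of 2.69, 3.60, 3.42 and 13.9 CPM. Unexposed larvae had at most 3.08 CPM of FMt036339 and 2.62 CPM of FMt043678.

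**Figure D5:**
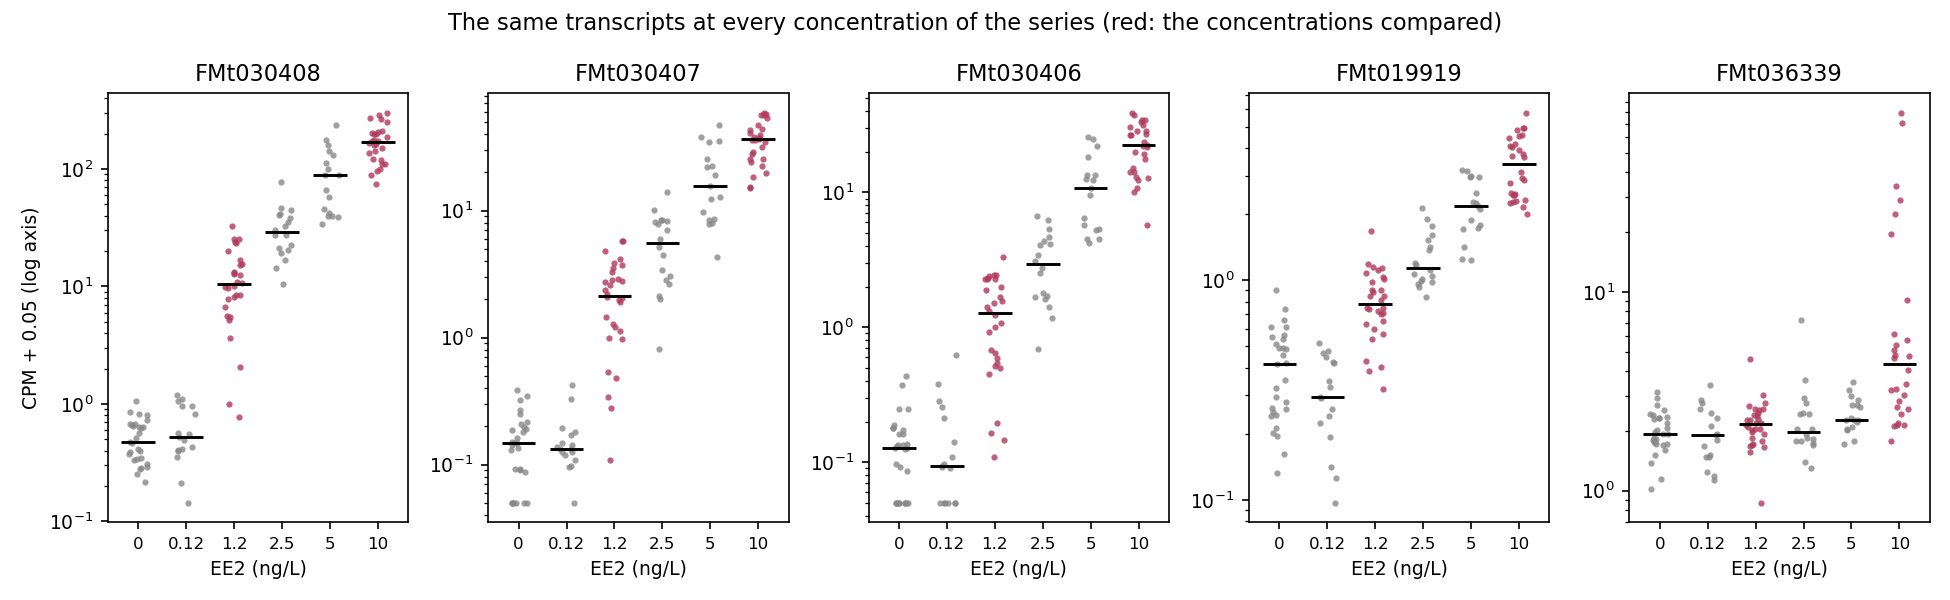
The 5 transcripts in each larva of the series by concentration (x axis, ng/L, 0 for unexposed), as CPM + 0.05 on a log axis, with a bar at the median and the concentrations compared in red. FMt030408, FMt030407, FMt030406 and FMt019919 have higher medians at each step from 1.2 to 10 ng/L, while FMt036339 has medians between 1.93 and 2.23 CPM from 1.2 to 5 ng/L and 4.28 CPM at 10 ng/L.

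Of the transcripts that earlier results named at 10 ng/L against unexposed larvae, 12 were looked at again, and 11 passed the filter. They were picked with the same larvae at 10 ng/L, so their values are a description. Of these 11, 1 was called, FMt036339, beside 5 of the 32568 transcripts tested (0.0154%). At 10 ng/L 7 were higher and 4 lower, beside 15996 higher and 16572 lower among all tested, and their median log2 difference was 0.29, against -0.0018 over all transcripts tested. FMt041475 averaged 118 ± 33.5 CPM at 10 ng/L, against 140 ± 40.4 CPM at 1.2 ng/L, a log2 difference of -0.23 ± 0.06 with the same sign in each experiment (adjusted p = 0.927). FMt003762 averaged 0.543 ± 0.519 CPM at 10 ng/L, against 1.31 ± 1.30 CPM at 1.2 ng/L (-1.18 ± 0.38, adjusted p = 1.00). FMt002788 and FMt042784 had log2 differences of -0.13 ± 0.06 and -0.39 ± 0.16, also with adjusted p-values of 1.00.

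FMt007494, FMt007495, FMt007496 and FMt007497, which carry consecutive identifiers, were not told apart between the exposed groups. Their log2 differences were 0.33 ± 0.15, 0.28 ± 0.16, 0.37 ± 0.17 and 0.29 ± 0.14 (SE, adjusted p = 1.00 each). The sign was not stable: experiment 1 gave 0.73, 0.58, 0.67 and 0.54, and experiment 3 gave -0.22, -0.23, -0.09 and -0.15. FMt007497 averaged 175 ± 72.98 CPM at 10 ng/L, against 139.5 ± 49.99 CPM at 1.2 ng/L, and the groups overlapped in all but 2 larvae at 10 ng/L.

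For the rest of the transcripts the larvae at 10 and 1.2 ng/L were close, and the intervals say how close. The interquartile range of all log2 differences was -0.06 to 0.06, and 1175 transcripts had an unadjusted p under 0.05 (3.61%), 594 higher and 581 lower at 10 ng/L. The 95% interval lay within a 2-fold change in either direction for 31966 transcripts (98.2%) and within 1.5-fold for 28945 (88.9%). Precision followed abundance: the median SE was 0.07 for the 13879 transcripts with at least 10 CPM, 0.12 for the 14485 with 1 to 10 CPM and 0.20 for the 4204 below 1 CPM. In the lowest class 60.3% of the intervals stayed within 1.5-fold, against 97.7% in the highest, so small changes of scarce transcripts are more easily missed here. The parts of read depth and of differences between larvae in this were not tested.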

How the data were processed

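Per the labels' protocols, each larva was frozen whole, and 250 ng of its RNA went into a Lexogen SENSE mRNA library. The authors deposited raw read counts per transcript, whole numbers for 37085 identified transcripts in every library of the series. Reads were mapped to known transcripts, per the series' design text; bcl2fastq 2.19.1, limma 3.40.6 and edgeR 3.26.8 are named in the submitters' processing notes, with no aligner, counter, use of strand or row filter among them. A row without an identifier (1.64e-05% of reads) was left out, and 0 columns were unmapped. None of the identifiers matched the RefSeq gene table (0 of 64593 genes), so marker and pathway lists were not used.

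The test on the 58 libraries used edgeR 4.0.16 (R 4.3.3): filterByExpr (minimum count 10, total 15), TMM, robust quasi-likelihood fit with concentration and experiment, calls at an adjusted p under 0.05. SEs are the change over the square root of F. Levels are CPM scaled by TMM over all libraries of the series. Spread used limma 3.58.1 (log2 CPM, prior count 2). Correlations were permuted 100000 times within experiments (numpy 2.4.6, two-sided). The median count per transcript and library was 147. Scripts were tested on simulated data. No 2 libraries of a group and experiment were copies (252 pairs, chi-square 9.42 to 130 times its degrees of freedom).

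Members, lists and the naming rule were chosen with earlier results of these data known. The rule took 4 transcripts known to respond, 12 named earlier, and called transcripts of at least 1 CPM with 1 direction in all experiments. Alternatives were RLE scaling, other filters, DESeq2 1.42.0, limma-voom, other covariates and libraries or experiments left out. Leaving out each library in turn was chosen after the data were seen.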

Additional observations from a re-analysis of the deposited data

How the results depend on the processing

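Of 5 transcripts called between 10 and 1.2 ng/L, FMt030406, FMt030407, FMt030408 and FMt019919 were called under all 18 planned refits and with each of the 58 libraries left out. DESeq2 called 9 transcripts, with FMt026700 at a log2 change of -2.01, and a fit of every library of the series 10, with FMt041062 at -3.52; both are named as the only lower calls there. Their medians were close, at 1.30 CPM in larvae at 10 ng/L, against 1.55 CPM at 1.2 ng/L, in FMt026700, and 0.0876 CPM in those at 10 ng/L, against 0.121 CPM at 1.2 ng/L, in FMt041062 (CPM without TMM), while the highest larva at 10 ng/L had 5.39 CPM, against 55.98 CPM at 1.2 ng/L, in FMt026700, and 1.11 CPM, against 125.6 CPM, in FMt041062. The other planned settings called 4 to 7, and single libraries left out gave 5 to 7. FMt036339 was lost in 6 refits: without experiment 2 (1.61, log2), without experiment 3 (1.76), in experiment 1 alone (0.28), in experiment 3 alone (2.90), with runs of larvae summed (2.13) and with the title number as a replicate block (1.37, adjusted p = 1.00). That block, over 28 pairs of larvae with the same number, called 4 transcripts. The number was not a block in the main test because no label says what it marks. Same-numbered larvae correlated at -0.249 to 0.318 in their deviations, and none correlated best with its own number. Between 5 and 2.5 ng/L 3 to 6 were called, and 5 without 2.5 ng/L replicate 7, with FMt020251 having a log2 change of -1.92, named as the list is short. For the interaction DESeq2 called 3 where edgeR called 0. The spread test called 1 transcript, FMt040489 (adjusted p = 0.0495), with deviations from the mean in place of the median. In experiment 3 alone FMt007494, FMt007495, FMt007496 and FMt007497 turned to -0.22, -0.23, -0.094 and -0.15. The cause of these changes was not tested. With another pseudocount, without shallow libraries or without the 2 farthest larvae, r between FMt030408 and FMt019919 was 0.0614 to 0.191 at 10 ng/L, against -0.201 to -0.115 at 1.2 ng/L; in experiment 1 alone its sign turned at both (-0.0300 at 10 ng/L, against 0.0958 at 1.2 ng/L).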
